A study of Homo sapiens with 12 samples.

Results

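A set of 8 genes of the cell death machinery was followed across the arrays: the caspases CASP1, CASP4 and CASP8, the caspase-8 regulator CFLAR, the death receptor FAS, and the BCL2 family members BID, MCL1 and BCL2A1. The genes were chosen by symbol, with earlier results of these data known. Every probe annotated to 1 of them alone was taken, which gave 11 probes for 7 of the 8 genes. The platform held 54359 probes, of which 53671 could be tested, and 18106 genes had a tested single-gene probe. The 8th gene, CASP1, is listed only on a probe shared with CARD16, so no value is given for it. CASP4 had 2 probes, CFLAR had 3 and FAS had 2. CASP8, BID, MCL1 and BCL2A1 had 1 each, so the values of these genes rest on 1 probe. BID is also listed on 1 probe shared with another gene, which was not taken. All 11 probes entered the test.

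The cells were T-HESC, a human endometrial stromal line made immortal with telomerase and distributed by ATCC. All cultures were kept without serum for 24 h and then treated for 48 h. The 4 groups of 3 arrays received vehicle, 5 ng/ml TNFα, 1 ng/ml IL1β, or both cytokines at those doses, and are called vehicle, TNF, IL1 and TNF+IL1. Replicate 1 of every group came from passage 13, replicate 2 from passage 28 and replicate 3 from passage 15. The line is a single source, so the spread between replicates is the spread between passages of 1 line, not between donors.

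Cells can be killed through surface death receptors or from within through mitochondria. FAS and related receptors recruit an adaptor and CASP8, an initiator caspase; CFLAR encodes c-FLIP, which resembles CASP8 and controls its activation at the receptor. Active CASP8 cleaves BID, whose fragment carries the signal to the mitochondrial membrane, where MCL1 and BCL2A1 oppose it. CASP4 works apart from this route: it is an inflammatory caspase that binds bacterial lipopolysaccharide inside the cell and triggers pyroptosis. TNF signals through its own receptors to NF-kB as well as to CASP8, and IL1 signals to NF-kB through MyD88.

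All values are log2 of the deposited scaled intensity, a scale on which the median probe of each array lay between 0.04 and 0.09. Between 52944 and 53507 probes per array had a deposited intensity above 0, and so a log2 value. The first principal component over the 26635 brighter probes carried 47.9% of the variance and did not follow treatment. On it the replicate 1 vehicle array scored -83.7 and the replicate 3 vehicle array 97.6, at opposite ends; the replicate 3 TNF array scored 61.3, the replicate 2 IL1 array 48.3, and the other 8 arrays lay between -21.5 and -8.75. Of the stromal markers, 6 of 8 were measured and all 6 lay above the array median. None was called; 4 of 6 were lower than vehicle with TNF and all 6 with IL1 and with TNF+IL1, with median changes of -0.36, -0.37 and -0.24. Over all genes 12180 of 18106 were lower than vehicle with IL1 and 10775 with TNF+IL1. Of the leukocyte markers, read because several death genes are abundant in leukocytes, 5 of 6 were measured and 2 lay above it; PTPRC, the pan-leukocyte antigen, had the lowest mean at -3.95. Of the epithelial markers 5 of 6 were measured and 4 lay above the median, with EPCAM lowest at -1.36. All 5 were likewise lower than vehicle in the 3 comparisons, with median changes of -0.43, -0.88 and -1.30. Of these 5 KRT18 alone passed the test: it fell by 1.58 on the log2 scale with TNF+IL1 (SE 0.26, limma adjusted p = 0.0447). Their summed linear signal was 86.1 to 120 in vehicle, 58.3 to 106 with TNF, 25.3 to 63.7 with IL1 and 38.0 to 39.5 with TNF+IL1; its part in the results below was not tested. The 3 arrays per group limit the precision of every value below.

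None of the 7 genes passed the test in any of the 9 comparisons (limma, Benjamini-Hochberg adjustment over all probes, adjusted p under 0.05). Across the whole array few genes did: 0.0773% of genes were called for TNF against vehicle, 0.0110% for IL1 and 0.348% for TNF+IL1. The share was 0.149% for the 6 arrays with TNF against the 6 without, 0.0221% for those with IL1 against those without, and 0.00% in the other 4 comparisons. At an unadjusted p under 0.05, CASP4 and BID were higher with each treatment, which is 2 of 7 genes against 3.45% of all genes for TNF, 2.18% for IL1 and 4.61% for TNF+IL1. None of the 7 was lower at that level in those 3 comparisons, where 3.16%, 5.96% and 8.07% of all genes were. The genes were chosen with earlier results of these data known, and the 3 comparisons share the vehicle arrays. The shares of all genes, here and below, are therefore a background and not a test of the set. The median change of the 7 genes was -0.01 with TNF, 0.04 with IL1 and -0.06 with TNF+IL1, and that of all genes was -0.02, -0.15 and -0.10. CASP4 and BID are described first, and the others in the order of the death receptor route.

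**Figure D1:**
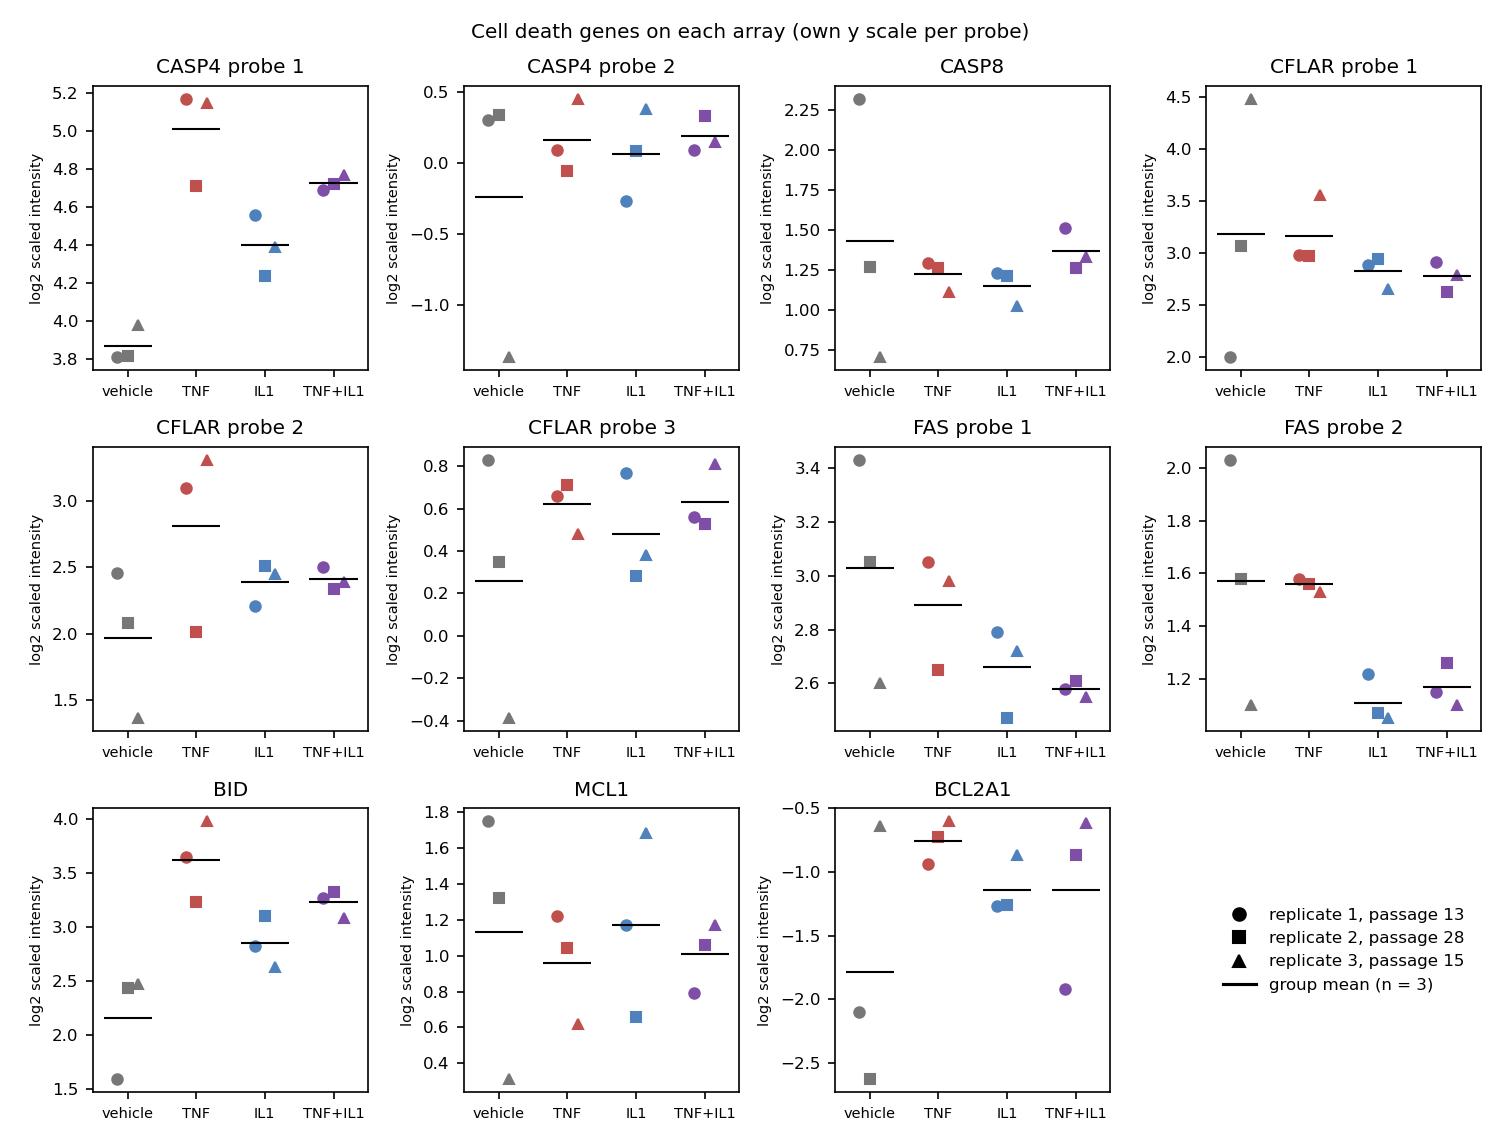
Log2 scaled intensity (y axis, own scale per panel) of the 11 probes on the 12 arrays, by treatment (x axis); symbols mark the passage and bars the mean of 3 arrays. CASP4 probe 1 and BID are lowest in the vehicle arrays and highest in the TNF arrays, while in CASP8 and CFLAR probe 1 the vehicle arrays alone cover a wider range than all treated arrays.

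CASP4 gave the clearest pattern. On the probe that represents it, the vehicle arrays of replicates 1, 2 and 3 read 3.81, 3.82 and 3.98 (mean 3.87 ± 0.10, SD, n = 3). The TNF arrays read 5.17, 4.71 and 5.15 (5.01 ± 0.26). The IL1 arrays read 4.56, 4.24 and 4.39 (4.40 ± 0.16), and the TNF+IL1 arrays 4.69, 4.72 and 4.77 (4.73 ± 0.04). Every treated array lay above every vehicle array. The order of the means was TNF, TNF+IL1, IL1, vehicle; the first pair overlapped, while TNF+IL1 and IL1 did not, nor did IL1 and vehicle.

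Against vehicle, CASP4 differed by 1.14 with TNF (SE 0.18, 95% interval 0.74 to 1.55, fold 2.21), and limma gave an unadjusted p of 8.50e-05 and an adjusted p of 0.0878. With TNF+IL1 it differed by 0.86 (SE 0.18, interval 0.46 to 1.26, fold 1.82, adjusted p = 0.116). With IL1 the difference was 0.53 (SE 0.18, interval 0.12 to 0.93, fold 1.44, adjusted p = 0.441). None of these is a call, but the first is close to the threshold, and 3 of 26 alternative settings put it past it; the adjusted p ran from 0.0198 to 0.798 over them. The difference itself kept its sign in all 26 and ran from 1.03 to 1.29. In the 3 passages taken singly the TNF array was above its own vehicle array by 1.37, 0.89 and 1.17.

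The other CASP4 probe lay near the middle of all probes, at percentile 50.3 by mean signal. Its vehicle arrays read 0.30, 0.34 and -1.37, and its treated arrays lay between -0.27 and 0.45. The changes of 0.40 with TNF, 0.30 with IL1 and 0.43 with TNF+IL1 (SE 0.41 each) were about the size of their standard errors, and the groups overlapped. Across the 12 arrays the CASP4 probes correlated at r = 0.26, so the pattern of CASP4 rests on 1 probe.

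BID, the BH3-only protein that CASP8 cleaves, followed the same order of means. Its vehicle arrays read 1.59, 2.44 and 2.47 (2.16 ± 0.50) and its TNF arrays 3.65, 3.23 and 3.98 (3.62 ± 0.38). The IL1 arrays read 2.82, 3.10 and 2.63 (2.85 ± 0.24), and the TNF+IL1 arrays 3.27, 3.32 and 3.08 (3.23 ± 0.13). Again all treated arrays were above all vehicle arrays, the nearest being 2.63 with IL1 against 2.47 with vehicle. TNF and TNF+IL1 overlapped, as did TNF+IL1 and IL1, the latter only through IL1 replicate 2.

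The BID difference from vehicle was 1.46 with TNF (SE 0.28, interval 0.83 to 2.09, fold 2.75, adjusted p = 0.183). It was 1.06 with TNF+IL1 (SE 0.28, interval 0.43 to 1.69, fold 2.09, adjusted p = 0.184) and 0.69 with IL1 (interval 0.06 to 1.32, fold 1.61, adjusted p = 0.486). The passages were uneven: TNF minus vehicle was 2.07 in passage 13, 0.80 in passage 28 and 1.52 in passage 15. The vehicle array of passage 13 was the lowest for BID and also scored lowest on the first component. With that array left out the BID difference for TNF was 1.17 (adjusted p = 0.239), and over all 26 alternatives it ran from 1.16 to 1.79.

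CASP4 and BID were the only members whose arrays lay wholly above vehicle, and they did so in each of the 3 comparisons, which share the vehicle arrays. Over all genes this held for 4.26% with TNF, 2.76% with IL1 and 6.99% with TNF+IL1, and for 182 of 18106 genes (1.01%) in all 3. Whether the cells made more of these RNAs, or whether the mix of cells differed after treatment, cannot be told apart in RNA from a whole culture. The summed linear signal of the 5 leukocyte markers was 4.86 to 7.91 in vehicle, 6.19 to 7.15 with TNF, 4.79 to 7.16 with IL1 and 7.94 to 8.79 with TNF+IL1. CD68, with the highest mean of the 5 (2.11), weighs most in this sum. Against vehicle 3 of the 5 were higher with TNF, 1 with IL1 and 4 with TNF+IL1. PTPRC, the dimmest, lay at percentile 0.851 of all probes, so its changes say little. Its mean was -3.43 in vehicle (SD 2.25), -2.93 with TNF, -5.23 with IL1 and -4.21 with TNF+IL1. The part of these markers in the result was not tested.

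**Figure D2:**
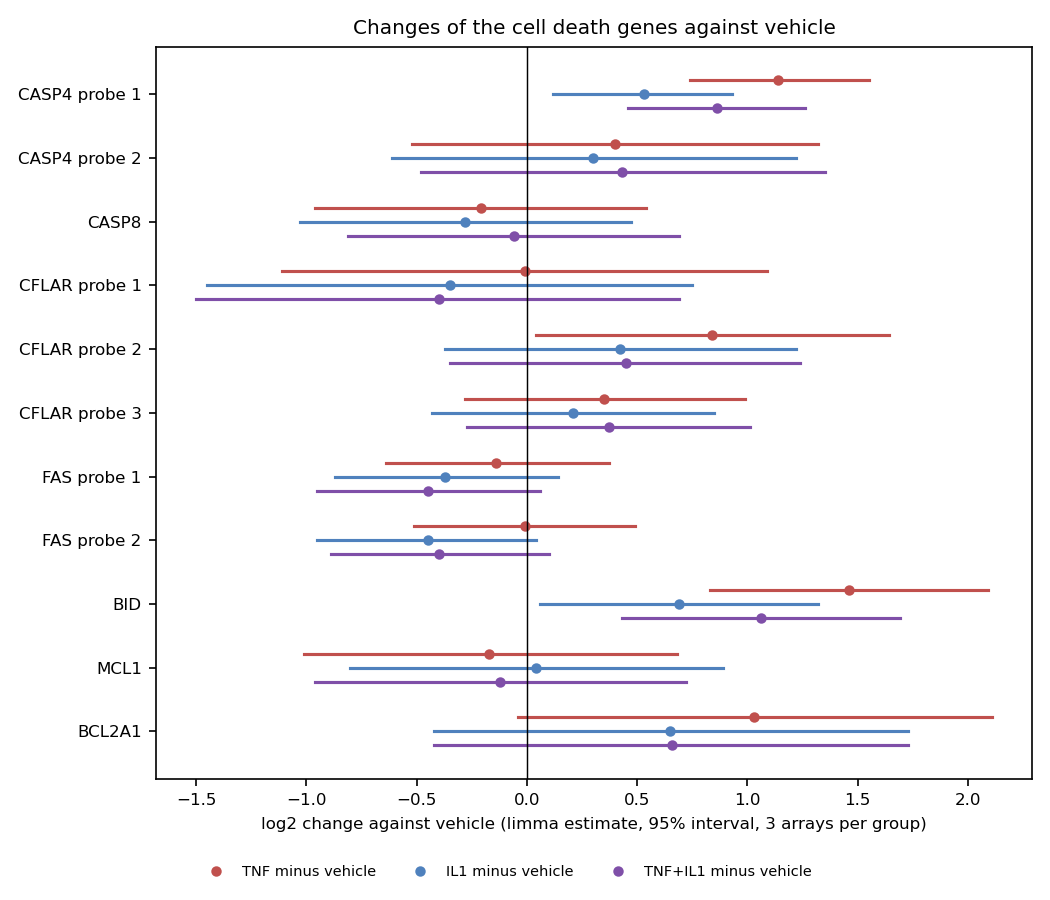
Log2 change against vehicle (x axis; point, limma estimate; line, 95% interval; 3 arrays per group) of each of the 11 probes (y axis) with TNF, IL1 and TNF+IL1. CASP4 probe 1 and BID have all 3 intervals above 0, from 0.12 and 0.06 upward; nearly all other intervals include 0, the exception being CFLAR probe 2 with TNF.

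The cytokines were then set against each other. TNF was above IL1 by 0.62 for CASP4 (interval 0.21 to 1.02, unadjusted p = 0.00671, limma adjusted p = 0.913) and by 0.77 for BID (interval 0.14 to 1.40, unadjusted p = 0.0215, adjusted p = 0.913). Both genes were without overlap, as was CFLAR on probe 1, which makes 3 of 7 genes; 13.1% of all genes were higher in TNF than in IL1 without overlap. No gene of the array was called in this comparison; at an unadjusted p under 0.05, 3.35% of genes were higher and 1.19% lower in TNF. Taking the 6 arrays with TNF against the 6 without, CASP4 was higher by 0.74 (SE 0.13, interval 0.45 to 1.02, unadjusted p = 0.000177, adjusted p = 0.0979). At the unadjusted level CASP4 and BID were the 2 of 7 genes that were higher, against 3.92% of all genes. For CASP4 all 6 arrays with TNF read 4.69 or more and all 6 without read 4.56 or less, a separation shown by 0.619% of genes. BID was higher by 0.92 (SE 0.20, interval 0.47 to 1.36, adjusted p = 0.221), with overlap.

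Neither gene was higher on average with both cytokines than with TNF alone. The changes with single cytokines summed to 1.67 for CASP4, against 0.86 observed with both, and to 2.15 for BID, against 1.06. The interaction was -0.81 for CASP4 (SE 0.26, interval -1.38 to -0.24, unadjusted p = 0.0101, limma adjusted p = 1.00) and -1.09 for BID (SE 0.40, interval -1.98 to -0.20, unadjusted p = 0.0217, adjusted p = 1.00). At the unadjusted level 2 of 7 genes were thus below additivity on the log2 scale, as were 1.07% of all genes, while 1.82% were above it; no interaction was called on the whole array. TNF+IL1 minus TNF was -0.28 for CASP4 (interval -0.69 to 0.12) and -0.40 for BID, and neither separated the groups. TNF+IL1 lay above IL1 without overlap for CASP4, by 0.33, and for CASP8, by 0.22 (interval -0.53 to 0.97, limma adjusted p = 1.00), which is 2 of 7 genes against 9.65% of all genes.

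The promoters of the genes are shown for CASP4 and BID, whose levels ran alike across treatments, and for CFLAR and BCL2A1, which are known targets of NF-kB. RefSeq windows on GRCh38.p14 matched 6 of the 8 genes. Each window is the 250 bases before the first listed start, printed 5′ to 3′ on the strand of the gene, with motif matches in capitals. The windows are chr11:104968575-104968824 (minus strand) for CASP4, chr22:17774470-17774719 (minus) for BID, chr2:201118466-201118715 (plus) for CFLAR and chr15:79971197-79971446 (minus) for BCL2A1.
CASP4: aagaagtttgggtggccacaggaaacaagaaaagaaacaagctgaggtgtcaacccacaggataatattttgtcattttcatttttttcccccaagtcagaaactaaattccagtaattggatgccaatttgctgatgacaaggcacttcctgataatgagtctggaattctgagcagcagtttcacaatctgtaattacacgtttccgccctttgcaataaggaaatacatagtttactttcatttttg
BID: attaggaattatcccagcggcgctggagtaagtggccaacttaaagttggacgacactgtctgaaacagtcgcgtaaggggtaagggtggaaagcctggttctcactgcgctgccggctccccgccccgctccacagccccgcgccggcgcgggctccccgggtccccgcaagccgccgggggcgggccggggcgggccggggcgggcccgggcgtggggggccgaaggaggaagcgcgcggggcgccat
CFLAR: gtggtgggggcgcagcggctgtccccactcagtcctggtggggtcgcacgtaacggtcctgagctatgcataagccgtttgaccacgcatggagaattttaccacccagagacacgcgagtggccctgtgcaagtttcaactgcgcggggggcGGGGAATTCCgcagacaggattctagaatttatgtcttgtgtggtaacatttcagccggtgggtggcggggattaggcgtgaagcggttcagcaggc
BCL2A1: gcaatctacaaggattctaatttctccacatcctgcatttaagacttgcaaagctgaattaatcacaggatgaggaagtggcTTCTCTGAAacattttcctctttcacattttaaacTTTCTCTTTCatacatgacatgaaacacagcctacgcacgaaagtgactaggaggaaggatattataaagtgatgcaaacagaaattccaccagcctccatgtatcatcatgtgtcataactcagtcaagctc
Searched on both strands were the NF-kB consensus, the interferon-stimulated response element core (GAAA, any 2 bases, then GAAA) and the gamma-activated site (TTCNNNGAA). Neither the CASP4 nor the BID window held any of the 3, and they differ in composition, with a GC content of 38.0% and 72.0% against a median of 58.0% over 27305 promoters. The CFLAR window held 1 NF-kB match 97 to 88 bases before the start, a motif found in 9.57% of promoters. The BCL2A1 window held 1 gamma-activated site match at 168 to 160 bases and 1 match to the response element core, on the other strand, at 133 to 124 bases, motifs found in 6.78% and 3.07% of promoters. It held no NF-kB match. Of the windows not printed, that of CASP8 held 1 gamma-activated site match at 200 to 192 bases, and that of FAS held none of the 3 motifs. A match is a string of letters, not a site shown to be bound, and no match says only that these letters are not in this window.

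FAS, the receptor at the head of the extrinsic route, had its lower means where IL1 was present, though no difference passed the test. On its first probe the vehicle arrays read 3.43, 3.05 and 2.60 (3.03 ± 0.41), the TNF arrays 3.05, 2.65 and 2.98 (2.89 ± 0.22), the IL1 arrays 2.79, 2.47 and 2.72 (2.66 ± 0.17) and the TNF+IL1 arrays 2.58, 2.61 and 2.55 (2.58 ± 0.03). On its second probe vehicle read 2.03, 1.58 and 1.10, TNF 1.58, 1.56 and 1.53, IL1 1.22, 1.07 and 1.05, and TNF+IL1 1.15, 1.26 and 1.10. The probes agreed across the 12 arrays (r = 0.89). In both, the replicate 3 vehicle array was the low one and overlapped the IL1 arrays.

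The FAS difference from vehicle was -0.37 with IL1 (SE 0.23, interval -0.87 to 0.14, limma adjusted p = 0.631) and -0.45 with TNF+IL1 (interval -0.95 to 0.06, adjusted p = 0.443) on the first probe, and -0.45 and -0.40 on the second. With TNF it was -0.14 (interval -0.64 to 0.37, adjusted p = 0.968) and -0.01. Over all 6 arrays with IL1 against the 6 without, the difference was -0.34 on the first probe (SE 0.16, adjusted p = 0.458) and -0.42 on the second (SE 0.16, interval -0.77 to -0.07, unadjusted p = 0.0241, adjusted p = 0.369). In that comparison 12056 of 18106 genes had a negative difference, 1555 of them at an unadjusted limma p under 0.05. TNF and IL1 arrays did not overlap on the second probe, where TNF was higher by 0.44 (limma unadjusted p = 0.0759, adjusted p = 0.913). That test pools the spread of all groups. On this probe the SD was 0.47 in vehicle, 0.02 with TNF and 0.10 with IL1. Of the 7 genes, FAS and, on its first probe only, CFLAR were lower in TNF+IL1 than in TNF without overlap, as were 17.8% of all genes. Without the replicate 3 vehicle array the FAS difference was -0.58 with IL1 and -0.66 with TNF+IL1, with adjusted p = 0.300 and 0.166.

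CASP8 showed no difference from vehicle that exceeded its spread. Its vehicle arrays read 2.32, 1.27 and 0.70 (1.43 ± 0.82). The treated arrays were much closer together, with TNF at 1.29, 1.26 and 1.11, IL1 at 1.23, 1.21 and 1.02, and TNF+IL1 at 1.51, 1.26 and 1.33, all of them inside the vehicle range. The differences from vehicle were -0.21 (interval -0.96 to 0.54) with TNF, -0.28 (interval -1.03 to 0.47) with IL1 and -0.06 (interval -0.81 to 0.69) with TNF+IL1, with limma adjusted p from 0.830 to 0.966. These intervals leave room for changes of either sign. CASP8, CASP10 and CFLAR lie next to each other on chromosome 2, and CASP10 differed from vehicle by -0.09, -0.37 and 0.19 with TNF, IL1 and TNF+IL1.

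CFLAR differed between its probes. Its first probe, which represents it, read 2.00, 3.07 and 4.48 in vehicle (3.18 ± 1.24), 2.98, 2.97 and 3.56 with TNF, 2.89, 2.94 and 2.66 with IL1 and 2.92, 2.63 and 2.79 with TNF+IL1. The differences were -0.01, -0.35 and -0.40 (SE 0.49 each), with intervals as wide as -1.50 to 0.69. Its second probe read 2.46, 2.08 and 1.36 in vehicle (1.97 ± 0.56) and 3.10, 2.01 and 3.31 with TNF (2.81 ± 0.70). There TNF was higher by 0.84 (SE 0.36, interval 0.04 to 1.64, fold 1.79, unadjusted p = 0.0404, limma adjusted p = 0.683), with overlap because of the replicate 2 array.

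On that second CFLAR probe IL1 read 2.21, 2.51 and 2.45 and TNF+IL1 read 2.50, 2.34 and 2.39, with differences of 0.42 and 0.45. The remaining probe differed from vehicle by 0.35, 0.21 and 0.37 (SE 0.29 each). Across the 12 arrays the first probe correlated with the second at r = -0.34 and with the remaining one at r = -0.80, while the latter pair correlated at r = 0.51. The first probe was lowest in the replicate 1 vehicle array and highest in the replicate 3 vehicle array, and the other probes had those arrays in the reverse order. The sign of the CFLAR difference thus depends on the probe.

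MCL1, a short-lived protein that protects mitochondria, overlapped between all groups. It read 1.75, 1.32 and 0.31 in vehicle (1.13 ± 0.74), 1.22, 1.04 and 0.62 with TNF, 1.17, 0.66 and 1.68 with IL1 and 0.79, 1.06 and 1.17 with TNF+IL1. All treated arrays lay inside the vehicle range. The differences were -0.17 (interval -1.01 to 0.68) with TNF, 0.04 (interval -0.80 to 0.89) with IL1 and -0.12 (interval -0.96 to 0.72) with TNF+IL1, with limma adjusted p of 0.983, 0.984 and 0.931.

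BCL2A1, the other antiapoptotic member and a gene abundant in leukocytes, was dim, at percentile 36.4 of all probes. Vehicle read -2.10, -2.63 and -0.64 (-1.79 ± 1.03), TNF -0.94, -0.73 and -0.60 (-0.76 ± 0.17), IL1 -1.27, -1.26 and -0.87 (-1.14 ± 0.23) and TNF+IL1 -1.92, -0.87 and -0.62 (-1.14 ± 0.69). The replicate 3 vehicle array was as high as the treated arrays, so the groups overlapped. The difference was 1.03 with TNF (SE 0.48, interval -0.04 to 2.11, unadjusted p = 0.0575, limma adjusted p = 0.720), 0.65 with IL1 and 0.66 with TNF+IL1. In passages 13 and 28 TNF exceeded vehicle by 1.16 and 1.90, and in passage 15 by 0.04.

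Vehicle had the largest SD of the 4 groups in 9 of 11 member probes, the exceptions being CASP4 probe 1 and CFLAR probe 2, where TNF had it, and in 66.6% of brighter probes overall. The median SD of the 11 probes was 0.61 in vehicle, 0.26 with TNF, 0.17 with IL1 and 0.13 with TNF+IL1. The fit uses 1 spread per probe for all groups. Where vehicle spread most, its intervals between treated groups tend to be wider than the spread of those groups would give. Its intervals against vehicle tend to be narrower. In 6 of 11 probes the replicate 1 vehicle array was the highest vehicle array and replicate 3 the lowest, and in 3 the order was the reverse. Across the 12 arrays, which share these extremes, the correlation with the first component was -0.91 for MCL1, 0.90 for CFLAR probe 1, -0.78 for CASP8, 0.40 for BID and 0.11 for CASP4 probe 1. A further setting left out the 3 arrays at the high end of that component: replicate 3 of vehicle, replicate 3 of TNF and replicate 2 of IL1. There CASP4 differed from vehicle by 1.13 with TNF and 0.92 with TNF+IL1 (limma adjusted p = 0.225 and 0.0776). BID differed by 1.43 and 1.21 (adjusted p = 0.274 and 0.0949). The replicate 1 vehicle array, at the opposite end with a score of -83.7, stayed in. It was the lowest vehicle array for BID, which keeps these BID differences large.

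**Figure D3:**
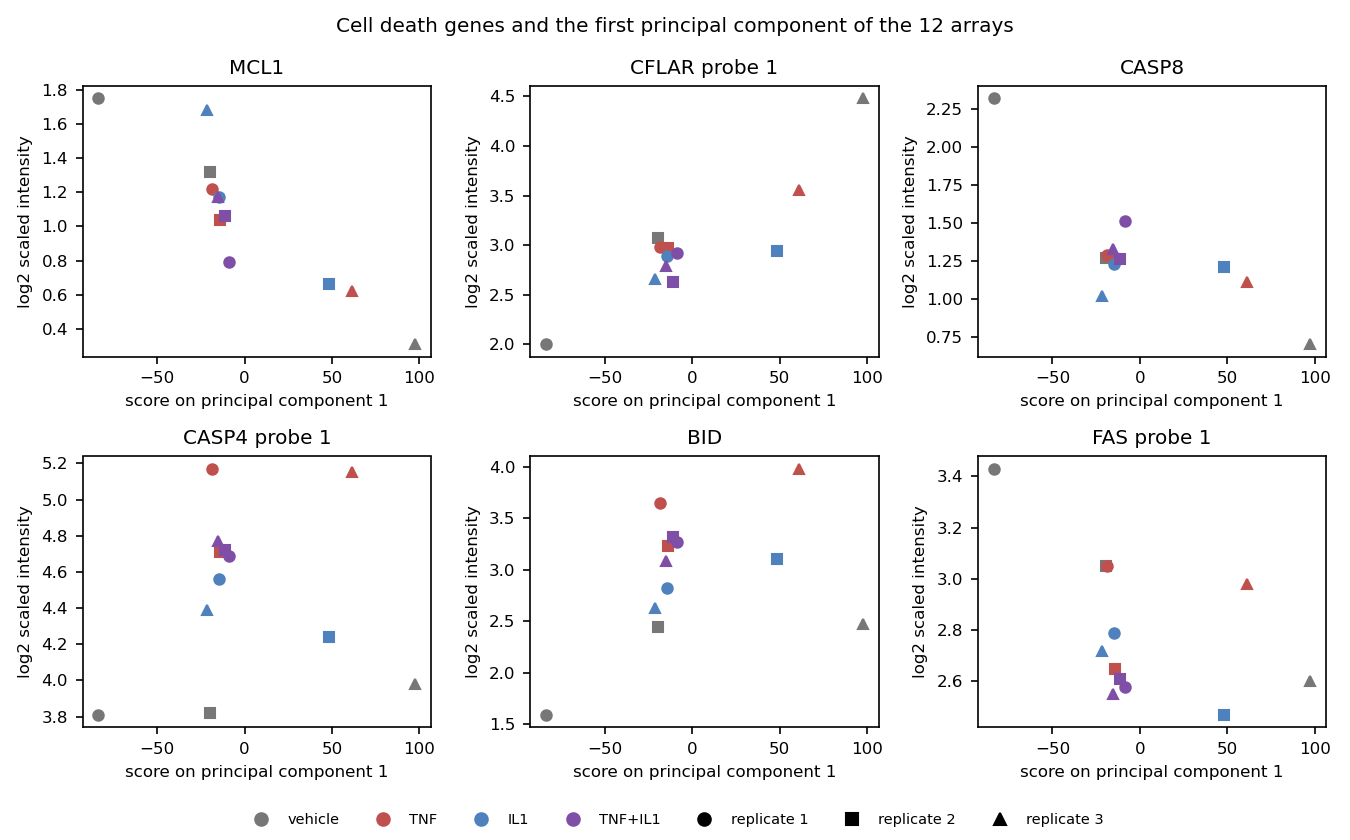
Log2 scaled intensity (y axis, own scale per panel) against the score on the first principal component (x axis, 47.9% of variance) for 6 member probes on the 12 arrays; colour marks treatment and symbol the replicate. MCL1 and CASP8 are lower, and CFLAR probe 1 higher, in the arrays with high scores, while in CASP4 probe 1 the 3 vehicle arrays, with scores from -83.7 to 97.6, all read 3.98 or less.

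Other genes of the same routes were taken from lists that were drawn up by function: other caspases, death receptors and adaptors, BCL2 family members of each kind, caspase inhibitors and the apoptosome, the inflammasome and necroptosis. Of 59 listed genes 49 had a tested single-gene probe, and none was called in any comparison with limma. At an unadjusted p under 0.05, 3 were higher and 1 lower with TNF, 0 and 1 with IL1, and 2 and 3 with TNF+IL1. Over all genes the shares higher and lower at that level were 3.45% and 3.16% with TNF, 2.18% and 5.96% with IL1, and 4.61% and 8.07% with TNF+IL1, so these counts are near the background. Their median change was 0.04, -0.12 and -0.05 in those comparisons, close to that of all genes. Among the lists, the proapoptotic BCL2 relatives (9 of 10 measured) had medians of 0.29, -0.10 and 0.05, the antiapoptotic ones (4 of 4) -0.28, -0.27 and -0.42, and the necroptosis genes (4 of 4) 0.24, 0.14 and 0.29. The other caspases (6 of 8) had -0.03, -0.28 and -0.27, the death receptor genes (10 of 12) -0.16, -0.12 and 0.19, the inhibitors and apoptosome (7 of 9) 0.14, -0.10 and -0.13, and the inflammasome genes (9 of 12) 0.02, -0.28 and -0.21.

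The gene with the lowest p for TNF+IL1 in each list is given by rule. BIRC5, or survivin, an inhibitor of apoptosis that also serves in mitosis, read 3.43, 5.10 and 3.24 in vehicle and 1.55, 1.16 and 1.99 with TNF+IL1, without overlap. The difference was -2.36 (SE 0.60, interval -3.69 to -1.02, unadjusted p = 0.00277, limma adjusted p = 0.169); TNF read 3.25, 2.35 and 3.82 and IL1 read 3.01, 2.53 and 4.27. PMAIP1, or NOXA, which binds and neutralises MCL1, read 6.25, 6.05 and 6.20 in vehicle and 5.43, 5.52 and 5.48 with TNF+IL1. It differed by -0.69 (SE 0.21, interval -1.16 to -0.22, unadjusted p = 0.00828, adjusted p = 0.228).

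MLKL, the effector of necroptosis, lay at percentile 49.7 of all probes by mean signal. It read -0.51, -0.10 and -0.95 in vehicle and 0.16, 0.47 and 0.33 with TNF+IL1. The difference was 0.84 (SE 0.32, unadjusted p = 0.0248, limma adjusted p = 0.311). GSDMD, the pore protein that CASP4 cleaves in pyroptosis, read 2.58, 2.28 and 1.53 in vehicle and 2.59, 2.71 and 2.67 with TNF+IL1, a difference of 0.53 (SE 0.29, adjusted p = 0.478). TRADD, an adaptor of the TNF receptor, differed by -0.22 (SE 0.16, adjusted p = 0.591). CASP14, a dim caspase gene of skin, differed by -1.90 (SE 0.66, adjusted p = 0.272) and BCL2L10, also dim, by -0.54 (SE 0.27, adjusted p = 0.442). CASP5, which lies between CASP4 and CASP1 on chromosome 11, differed from vehicle by 0.04, 0.06 and -0.33 with TNF, IL1 and TNF+IL1.

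**Figure D4:**
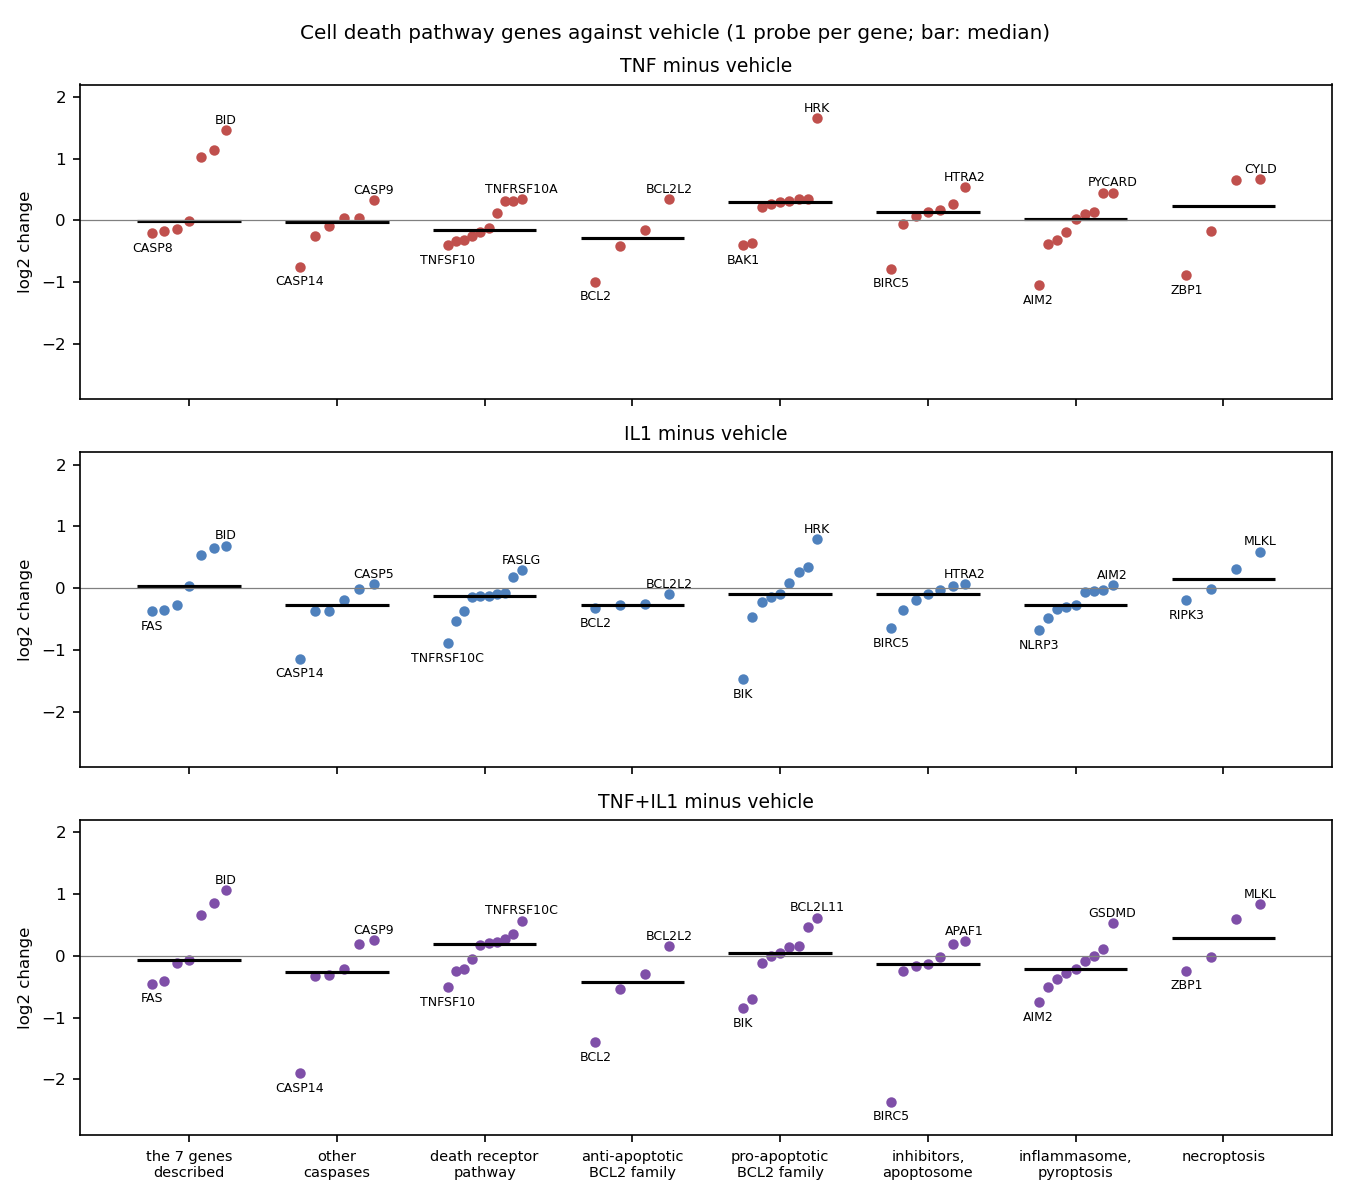
Log2 change against vehicle (y axis) of the 7 genes and of 49 genes in 7 function lists (x axis), 1 probe per gene, for TNF, IL1 and TNF+IL1 (panels); bars are list medians, and the lowest and highest gene of each list is named. No point passed the test; the medians lie between -0.42 and 0.29, and BIRC5 at -2.36 is the lowest value with TNF+IL1.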

How the data were processed

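T-HESC RNA was hybridised to CodeLink single-colour arrays, 12 in all. The values are the series' deposited linear scaled intensity per probe; which software the authors scanned and normalized with is not given in the sources used here. The missing value code (0.716% of values) and other values at or below 0 (1.10%) were set to missing, and the rest were taken to log2 with no further normalization. Probes with at least 2 values per group were kept. Probes were named through the platform annotation, updated by Entrez identifier (23434 symbols): 23472 had 1 gene, 905 several and 29982 none. A gene is represented by its probe with the highest mean; in each function list the gene with the lowest p for TNF+IL1 is named. Members and lists were chosen with earlier results of these data known.

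All 12 arrays entered 1 limma 3.58.1 fit in R 4.3.3 (group means, no block), with Benjamini-Hochberg adjustment over the 53671 probes tested and a threshold of 0.05. The fit was tested on simulated data in which probes were drawn independently, with the same spread in all groups. The real arrays have unequal group spreads and a large first component. The simulation therefore checks the code and not how well the fit suits these data. Intervals are 95% from the limma fit. The labels give same-numbered replicates the same passage, which pairs them; residuals of the 18 same-passage pairs correlated at 0.0181 on average (range -0.541 to 0.720), against 0.00460 for 36 other pairs. Alternatives were an offset, other filters, between-array normalization, array weights, a trended prior, a replicate block, the compared groups alone, and leaving out arrays. Leaving out the 3 arrays at the high end of component 1, and the component 1 score as covariate, were chosen after seeing the data.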

Additional observations from a re-analysis of the deposited data

How the results depend on the processing

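The count of 7 genes called was 0 in each comparison and remained 0 in every setting that left out a replicate. Few probes of the whole array were called once all of replicate 1, 2 or 3 was left out. There were 0, 0 and 1 for TNF against vehicle and 6, 4 and 4 for TNF+IL1. A member count of 0 in those settings therefore says little about these genes. For TNF against vehicle the member count became 1 through CASP4 without dim probes (limma adjusted p = 0.0198), with 1 probe per gene (0.0395) and with a trended robust prior (0.0300). It became 1 through BID with the component 1 covariate (0.0494). Over all probes 25 of 53671 were called in the main fit. In those settings 50 of 26835, 37 of 18106, 57 of 53671 and 61 of 53671 were called. For TNF+IL1 the member count became 1 without dim probes (CASP4, 0.0399) and with array weights (0.0239). It became 2 with the component covariate (CASP4 0.0411, BID 0.0366). Calls over all probes were 133 of 53671 in the main fit. They rose to 248 of 26835, 1200 of 53671 and 785 of 53671 in those settings. For the 6 arrays with TNF against the 6 without, the member count became 1 through CASP4 in 4 settings. These were without dim probes (0.0223), 1 probe per gene (0.0429), the trended prior (0.0329) and array weights (0.0227). It became 2 with the covariate (CASP4 0.0439, BID 0.0409). Calls over all probes went from 43 of 53671 to 104 of 26835, 64 of 18106, and 118, 240 and 169 of 53671. The extra member calls thus came where calls over all probes rose as well. With the replicate block on passage the member count stayed 0. There CASP4 differed by 1.14 with TNF (limma adjusted p = 0.191) and 0.86 with TNF+IL1 (0.173). BID differed by 1.46 (0.339) and 1.06 (0.262), and the block changed no other member's call.

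Among differences from vehicle, signs turned for CASP8, CFLAR, MCL1 and FAS, none of them called. Over settings without 1 replicate, CASP8 ran from -0.58 to 0.24 with TNF, -0.64 to 0.17 with IL1 and -0.43 to 0.39 with TNF+IL1. CFLAR ran from -0.60 to 0.64, -0.97 to 0.38 and -1.06 to 0.24. MCL1 ran from -0.58 to 0.15, -0.62 to 0.39 and -0.61 to 0.30, and FAS with TNF from -0.39 to 0.07. The positive CASP8 values came without the replicate 1 vehicle array or all of replicate 1, the positive CFLAR values mainly without replicate 3. With array weights CFLAR was 0.04 with TNF; without the 3 arrays at the high end of component 1 it was 0.44, 0.24 and 0.24, and MCL1 with IL1 was -0.11. Dim signal limits BCL2A1, and leaving out dim probes drops it. The second CASP4 probe is limited by the spread of its vehicle arrays (SD 0.98).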

Other observations

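No member was called, so the rule for naming genes of like pattern gave none. Chosen after the values were seen, the genes whose levels followed CASP4 most closely over the 12 arrays were IFI30 (r = 0.96, rho = 0.97), a lysosomal thiol reductase, and CTSS (r = 0.94, rho = 0.96), or cathepsin S. Those closest to BID were PSMB10 (r = 0.97, rho = 0.97), a subunit of the immunoproteasome, and SEC11C (r = 0.97, rho = 0.95), a subunit of the signal peptidase. CASP4 and BID correlated with each other at r = 0.90 (rho = 0.88), the 17th highest among 11921 genes set against CASP4. These 12 arrays share their groups, so the correlations describe group differences as well as scatter.

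HRK, a proapoptotic BCL2 relative at percentile 49.0 of all probes by mean signal, was also noticed after its values were seen. It was 1.66 above vehicle with TNF (SE 0.50, interval 0.55 to 2.78, unadjusted p = 0.00763, limma adjusted p = 0.495), 0.79 with IL1 and 0.00 with TNF+IL1. ZBP1, a nucleic acid sensor that can start necroptosis, was dim, at percentile 32.0 of all probes. It differed from vehicle by -0.89 with TNF (SE 0.30, adjusted p = 0.552), -0.02 with IL1 and -0.24 with TNF+IL1.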
